A study of Drosophila melanogaster with 10 samples.

Results

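The nuclear genes for subunits of mitochondrial complex I were followed under RNAi against the linker histone H1. Members were all genes whose symbol in the array annotation starts with ND-, each represented by its probe set with the highest mean over all arrays. This gave 32 of 11982 genes with a single symbol, of which 27 encode subunits and 5 are paralogs named after a subunit with an added L. The rule uses symbols and mean levels, not changes under RNAi. Of the 7 nuclear core subunits 3 were measured (ND-75, ND-51 and ND-20), and the others were not analysed here. A probe set shared by ND-AGGG and another gene was left out.

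The study compared H1 RNAi with a control RNAi in Drosophila melanogaster, on 10 Affymetrix arrays. The 4 groups were salivary glands with H1 RNAi (3 arrays), salivary glands with RNAi against nau (Nautilus, a myogenic transcription factor, 3 arrays), Kc cells with H1 RNAi (2 arrays) and Kc cells with RNAi against GFP (2 arrays). In both gland groups Tub-Gal4, a ubiquitous driver, switched on the RNAi construct in the fly, so the knockdown was not limited to the gland. These flies were crossed at 18 °C and moved to 29 °C as embryos, and the labels give no larval age. Kc cells, an embryonic line with properties of haemocytes, grew at 25 °C with 10% serum, were exposed to dsRNA on days 0, 2 and 4, each time for 1 hour in serum-free medium, and gave their RNA on day 6. The series record instead speaks of a single treatment. The labels do not say whether arrays of a group came from separate animals or cultures, so the p-values cover only array-to-array spread, possibly technical.

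Complex I, the NADH:ubiquinone oxidoreductase, takes electrons from NADH into the respiratory chain and pumps protons across the inner mitochondrial membrane. Its N module oxidises NADH, its Q module passes the electrons over iron-sulphur clusters to ubiquinone, and its membrane arm, with a proximal and a distal part, moves the protons. Core subunits, some of them encoded in mitochondrial DNA, carry the catalysis, and accessory subunits surround and stabilise them. The roles given below are those known for the mammalian counterparts.

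Levels below are log2 of the deposited intensity, and changes are differences of group means on that scale. A gene was called higher or lower at an adjusted p under 0.05 from limma, fitted on all arrays and adjusted over 18769 probe sets. Over all probe sets, arrays of a group correlated with r of 0.989 to 0.994 in glands and 0.998 in Kc cells. H1 depletion was not checked, since the annotation used gives 0 probe sets a His1 symbol, alone or among several. The nau probe set read 3.53, 3.53 and 3.36 in the glands labelled H1 RNAi, against 6.02, 5.54 and 5.50 in the glands labelled nau RNAi. All H1 gland readings lie under the level of the Tag control probe sets, 3.55, taken here as background. A loss of nau in the glands labelled for it could therefore not have been read against them. The difference of -2.21 (H1 minus nau RNAi) runs opposite to such a loss, and its cause was not tested. In Kc cells the nau probe set was also called different, higher by 1.06 with H1 than with GFP RNAi. Every gland direction below rests on the labels. Of 9 gland markers, 7 were lower in H1 glands, and their summed intensity was 23416 to 27164 in H1 glands and 87999 to 91463 in nau glands (331 to 431 over the Kc arrays). Of 11 haemocyte markers, 9 were higher and 1 lower in H1 glands. Their sums were 8297 to 9016 in H1 glands and 4790 to 5900 in nau glands. Fat body markers (5 genes) summed to 57302 to 59372 in H1 glands and 50784 to 54030 in nau glands, against 79.9 to 109 over the Kc arrays. Sums of neuron and glia markers (6 genes) were 162 to 535 in H1 glands and 93.3 to 97.0 in nau glands, and those of midgut markers (5 genes) 147 to 361 in H1 glands and 82.5 to 101 in nau glands. By gene, 3 fat body markers were higher and 1 lower, 3 neuron and glia markers higher and 1 lower, and 3 midgut markers higher and 2 lower. Muscle markers (9 genes, 3 higher and 1 lower) summed to 1227 to 1817 in H1 glands and 1658 to 1836 in nau glands. The imaginal (3 genes) and testis (10 genes) lists each had 1 higher and 1 lower. The signal of 3′ over 5′ probe sets of the actin control was 2.11 to 2.48 (log2) in H1 glands and 1.80 to 1.98 in nau glands, and those of GAPDH and eIF-4a also stood higher in every H1 gland array. The part of these differences in the results below was not tested.

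In salivary glands, 11 of the 32 complex I genes were lower and 1 was higher with H1 RNAi, and the changes were small. The largest was that of ND-B17, an accessory subunit of the distal membrane arm, which fell by 0.83 on the log2 scale (1.77-fold). The subunits that were lower lay in every module, with 5 of 8 measured in the distal membrane arm, 2 of 7 in the N module, 2 of 4 in the Q module and 1 of 6 in the proximal membrane arm. The core subunit ND-51 was the gene that was higher, by 0.24. In Kc cells a single member passed the test, ND-15, which fell by 0.41.

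Of all genes tested in glands, 23.6% were lower and 23.6% higher, against 34.4% lower and 3.12% higher among the complex I genes. Most complex I genes have probe sets with a high mean level. Of the 24 members with a mean level of at least 9, 9 (37.5%) were lower and 1 (4.17%) higher, while 34.6% of the 2101 genes at that level were lower and 30.8% higher. The share of lower calls was thus close to that of genes of similar mean level, a grouping chosen after the values were seen. The median change was -0.13 over the members and -0.04 over all genes, and 24 of the 32 members lay below 0, as did 6563 of all 11982 genes. No member changed by 2-fold and 3 by at least 1.5-fold, all lower, while 15.8% of all genes changed by at least 2-fold and 30.2% by at least 1.5-fold in either direction. The 95% intervals of all 32 lay between -0.99 and 0.42. In bulk glands, fewer cells of a type and less RNA per cell cannot be told apart.

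**Figure D1:**
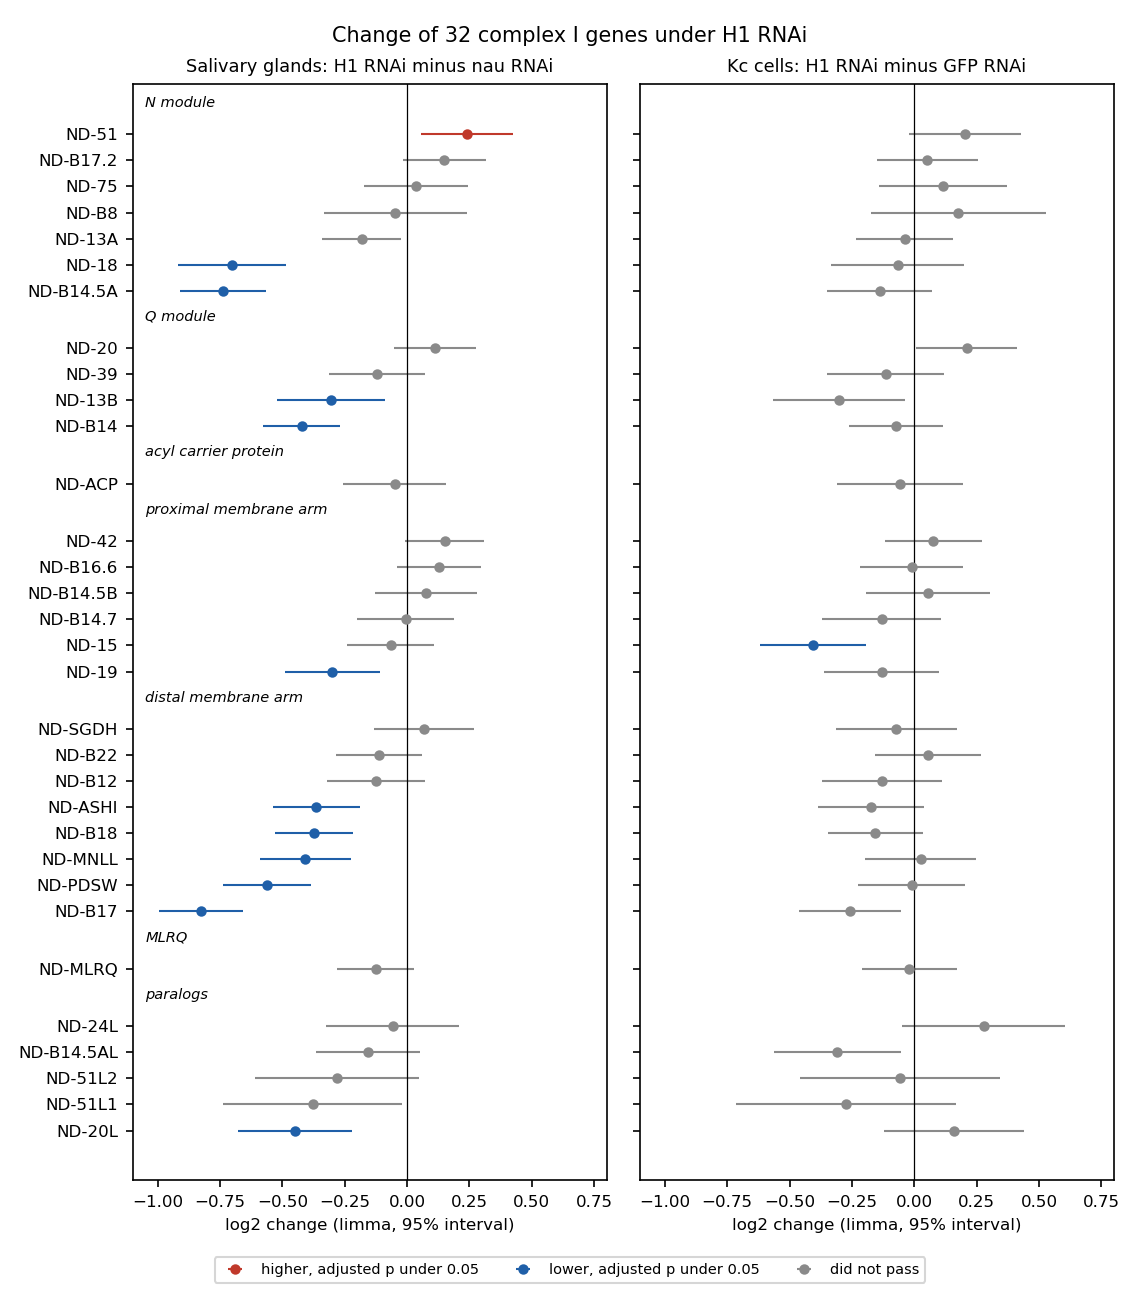
Change of each complex I gene in log2 units, salivary glands on the left (H1 minus nau RNAi) and Kc cells on the right (H1 minus GFP RNAi), grouped by module. Points are limma estimates and lines their 95% intervals. The 5 lowest distal membrane arm genes lie left of 0 in glands, and most intervals in Kc cells include 0.

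In the N module the 2 core subunits measured had small positive changes, though that of ND-75 turned sign under some settings. ND-51, counterpart of the subunit that binds NADH and the flavin, read 10.13, 10.11 and 10.13 in H1 glands, against 10.00, 9.86 and 9.79 in nau glands. Every H1 array lay above every nau array, and the change of 0.24 ± 0.08 (SE) had an adjusted p of 0.0422. The call was lost when each system was fitted alone (adjusted p = 0.0928), under quantile normalization (0.0512) and when any array other than nau array a was left out, with adjusted p up to 0.112. Centring on all probe sets gave a change of 0.18 (adjusted p = 0.105) and centring on bright ones 0.13 (0.201). Bright means above the Tag control level of 3.55 on every array. ND-75, the largest core subunit and a carrier of iron-sulphur clusters, read 9.15, 9.12 and 9.17 in H1 glands, against 9.22, 9.01 and 9.09 in nau glands. The groups overlapped, and the interval of its change ran from -0.17 to 0.25. Its estimate was 0.04, and -0.010 without nau array b, -0.019 when arrays were centred on the median of all probe sets and -0.072 when centred on bright ones.

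Among the accessory subunits of the N module, both that passed were lower. ND-B14.5A read 8.999, 8.97 and 9.01 in H1 glands, against 9.81, 9.73 and 9.66 in nau glands. It fell by 0.74 ± 0.08 (SE, 1.67-fold, adjusted p = 4.21e-05), with a gap between the groups wider than the spread within either. ND-18, whose human counterpart is mutated in some cases of Leigh syndrome, read 9.07, 9.13 and 9.06 in H1 glands, against 9.86, 9.86 and 9.65 in nau glands. It fell by 0.70 ± 0.10 (SE, 1.63-fold, adjusted p = 0.000268), again without overlap. ND-13A, a zinc-binding subunit, had a change of -0.18 that missed the threshold (adjusted p = 0.0668) although its groups did not overlap. ND-B17.2 had a change of 0.15 (adjusted p = 0.139). ND-B8 read 2.52 to 2.83 in H1 glands and 2.57 to 3.02 in nau glands, below the Tag control level of 3.55 (their 95th percentile, taken as background), so its change of -0.05 has no measured level behind it.

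In the Q module, ND-20, the core subunit with the last iron-sulphur cluster before ubiquinone, read 9.92, 10.01 and 9.99 in H1 glands, against 9.92, 9.84 and 9.83 in nau glands. The H1 arrays were all above the nau arrays by a narrow margin, and the change of 0.11 did not pass (adjusted p = 0.259). The accessory subunit ND-B14, a partner of the acyl carrier protein, read 10.28, 10.20 and 10.27 in H1 glands, against 10.70, 10.66 and 10.65 in nau glands. It fell by 0.42 ± 0.07 (SE, 1.34-fold, adjusted p = 0.000808), and the arrays of each group lay close together. ND-13B read 8.75, 8.95 and 8.74 in H1 glands, against 9.15, 8.97 and 9.23 in nau glands, and fell by 0.31 ± 0.10 (SE, adjusted p = 0.0296). Its groups came close to touching, and the call was lost with each system fitted alone (adjusted p = 0.0740) and without nau array a (0.0698), nau array c (0.0853), H1 array a (0.0843) or H1 array c (0.0884). ND-39, which binds a nucleotide cofactor in mammals, had a change of -0.12 (adjusted p = 0.289).

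ND-ACP, the mitochondrial acyl carrier protein, serves both complex I and mitochondrial fatty acid synthesis and is the member whose probe sets disagreed on the call. Its chosen probe set read 9.63, 9.61 and 9.55 in H1 glands, against 9.81, 9.62 and 9.51 in nau glands, which overlap. The 3 probe sets of the gene gave changes of -0.05 (adjusted p = 0.694), -0.19 (0.101) and -0.38 (0.00637). They agreed in sign, and the last would have been called lower. In the same order their means were 9.65, 9.97 and 10.37 in nau glands and 12.25, 11.52 and 11.04 in GFP Kc cells. The chosen probe set, the first, was thus the highest in Kc cells and the lowest in glands. The other member with several probe sets, ND-B17, had changes of -0.83 and -0.87 on its 2 probe sets, both called.

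The proximal membrane arm stood nearest to 0, with a median change of 0.04. ND-19 read 9.81, 9.90 and 9.81 in H1 glands, against 10.24, 10.18 and 10.00 in nau glands. It fell by 0.30 ± 0.08 (SE, 1.23-fold, adjusted p = 0.0177), and the call was lost with each system fitted alone (adjusted p = 0.0544) and without nau array a (0.0523), nau array b (0.0533) or H1 array a (0.0507). The remaining 5 measured genes did not pass: ND-42 (0.15), ND-B16.6, counterpart of the cell death protein GRIM-19 (0.13), ND-B14.5B (0.08), ND-B14.7 (-0.01) and ND-15 (-0.07). For ND-42 and ND-B16.6 every H1 gland array was above every nau gland array.

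The distal membrane arm held the most lower calls, and its median change was -0.37. ND-B17 read 9.49, 9.45 and 9.46 in H1 glands, against 10.35, 10.21 and 10.32 in nau glands, a fall of 0.83 ± 0.07 (SE, adjusted p = 1.64e-05). ND-PDSW read 10.10, 9.96 and 10.06 in H1 glands, against 10.68, 10.59 and 10.54 in nau glands, and fell by 0.56 ± 0.08 (SE, 1.48-fold, adjusted p = 0.000292). ND-MNLL, a short single-span membrane subunit, read 10.24, 10.30 and 10.35 in H1 glands, against 10.79, 10.70 and 10.61 in nau glands, and fell by 0.41 ± 0.08 (SE, adjusted p = 0.00283). In each of these the highest H1 array lay under the lowest nau array. ND-B18 read 9.81, 9.79 and 9.85 in H1 glands, against 10.21, 10.18 and 10.17 in nau glands, and fell by 0.37 ± 0.07 (SE, adjusted p = 0.00196). ND-ASHI read 9.88, 9.95 and 9.98 in H1 glands, against 10.37, 10.28 and 10.24 in nau glands, and fell by 0.36 ± 0.08 (SE, adjusted p = 0.00398). These groups were also apart. The remaining distal genes did not pass, with changes of -0.13 for ND-B12, -0.11 for ND-B22 and 0.07 for ND-SGDH. ND-MLRQ, whose mammalian counterpart is counted as a subunit of cytochrome c oxidase, had a change of -0.13 (adjusted p = 0.176) with its H1 arrays all lower.

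**Figure D2:**
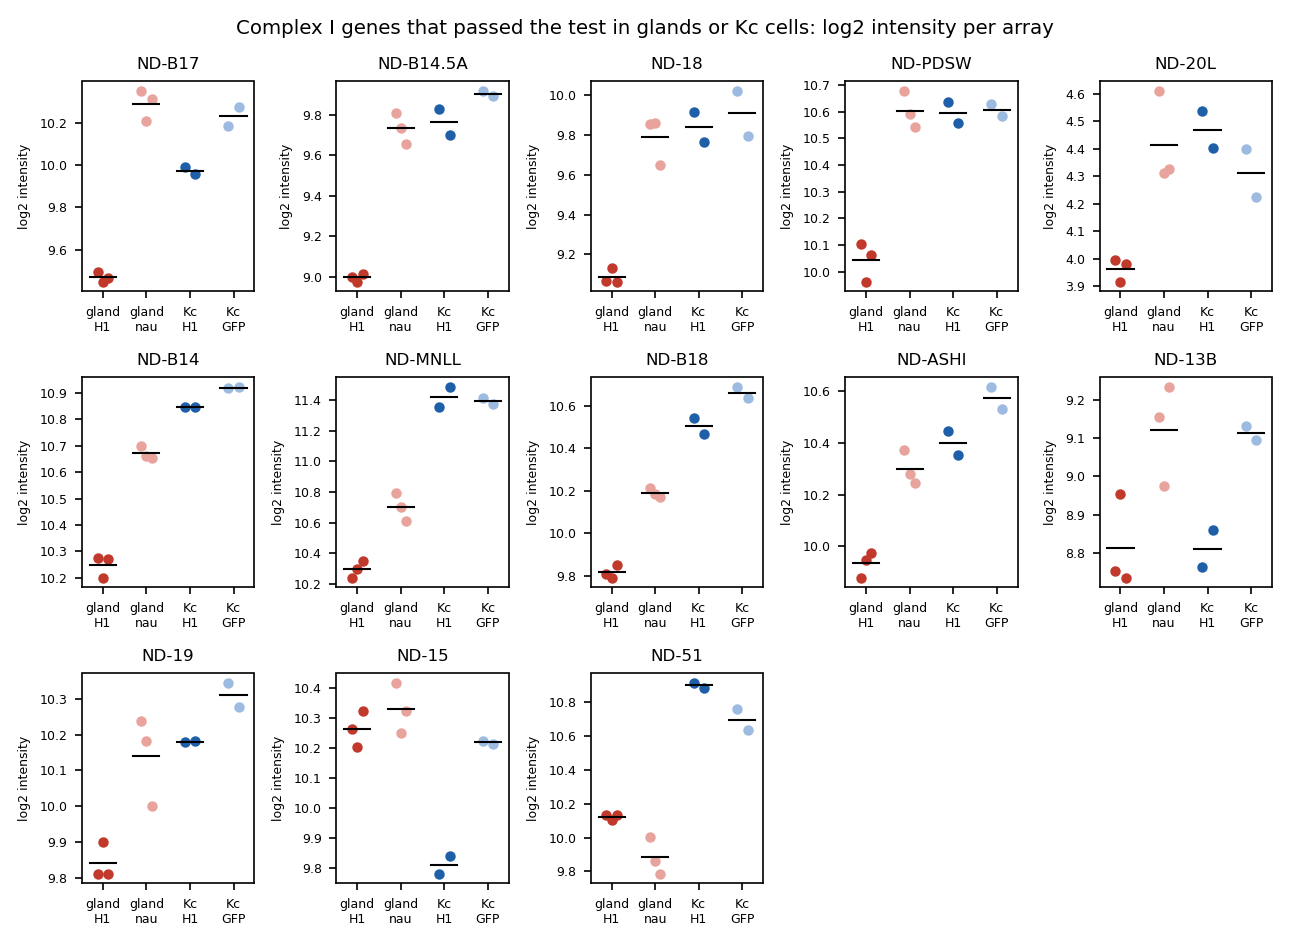
Log2 intensity on every array (points) and group means (bars) for the 13 complex I genes that passed the test in glands or Kc cells, each on its own axis, which does not start at 0. In the first row the 3 H1 gland arrays lie below all nau gland arrays, and ND-51 is the gene with its H1 gland arrays above them.

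The 5 paralogs had low signals, at 3.17 to 4.73 over all gland arrays, close to the Tag control level. ND-20L, a paralog of the core subunit ND-20, read 4.00, 3.92 and 3.98 in H1 glands, against 4.61, 4.31 and 4.33 in nau glands. It fell by 0.45 ± 0.10 (SE, 1.37-fold, adjusted p = 0.00571). With 16 added to each intensity before the log, which damps low signals, its change was -0.24 (adjusted p = 0.00862) and its difference between the systems, described below, was -0.33 (0.0240). The other paralogs did not pass: ND-51L1 had a change of -0.38 (adjusted p = 0.0881), ND-51L2 of -0.28 (0.155), ND-B14.5AL of -0.16 (0.210) and ND-24L of -0.06 (0.728). All of these overlapped between the groups, and ND-B14.5AL was under the Tag control level in all 4 groups.

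Counted by overlap alone, 18 of the 32 members had gland groups that did not overlap, 13 of them lower and 5 higher with H1 RNAi. Over all genes 28.8% did not overlap with H1 RNAi lower and 25.9% with H1 RNAi higher. On some gland arrays the members also moved together. The deviations of a group balance out, so its arrays are not independent here. On nau array a, 30 of 32 members (93.8%) lay above their nau group mean, against 54.7% of all genes and 63.5% of the genes at a level of at least 9. On nau array c, 3 of 32 (9.38%) did, against 48.5% of all genes and 44.5% of the genes at that level. The median deviation was 0.07 on nau array a and -0.06 on nau array c, beside a median change of -0.13 between the gland groups. Single genes called lower deviated further, for example ND-18 by -0.14 on nau array c. The part of this spread in the gland changes was not tested. Among H1 gland arrays, array c had 25 of 32 members (78.1%) above the mean, against 57.3% of all genes and 68.5% of the genes at a level of at least 9. Arrays a and b had 43.8% and 40.6% of members above it, close to the 44.4% and 44.9% of all genes.

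**Figure D3:**
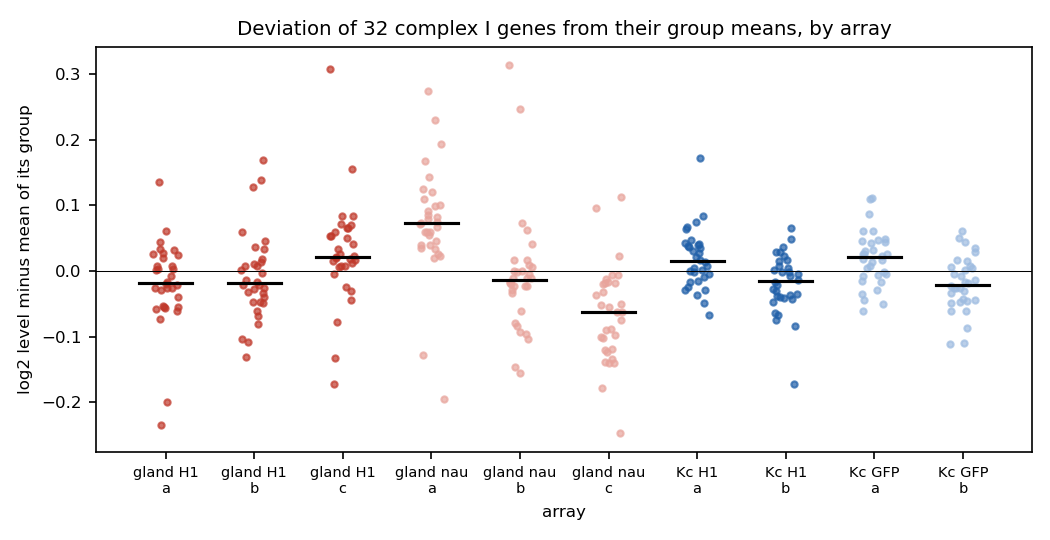
Deviation of each complex I gene from the mean of its own group, by array, in log2 units, with bars at the median. The points of nau gland array a lie mostly above 0 (median 0.07) and those of nau gland array c mostly below it (median -0.06), while the Kc arrays spread less.

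In Kc cells, 1 complex I gene was lower with H1 than with GFP RNAi and 0 were higher, at backgrounds of 1.59% lower and 3.46% higher over all genes. In the limma fit, 5 members (15.6%) had an unadjusted p under 0.05, close to the 17.4% of all genes. ND-15, an accessory subunit of the intermembrane space side, read 9.78 and 9.84 with H1 RNAi, against 10.22 and 10.21 with GFP RNAi. Its change of -0.41 had an interval of -0.62 to -0.19 and an adjusted p of 0.0457. This call was lost without any 1 of the 4 Kc arrays, and also without nau array b or any H1 gland array, whose spread enters the shared error, with adjusted p up to 0.258. The pooled SD was 0.114 and 0.117 in the Kc groups, against 0.238 and 0.263 in the gland groups. With each system fitted alone, 2152 probe sets were called in Kc cells (771 in the shared fit) and 6340 in glands (7631). Among them were 1 member in Kc cells and 9 in glands. The numbers of calls in the 2 systems thus depend on the shared error. The median change of the members was -0.06, against -0.03 over all genes. It was -0.025 without GFP Kc array a and -0.020 after quantile normalization, where it stood 0.0049 above that of all genes. The 95% intervals of all 32 lay between -0.72 and 0.60. No member reached 1.5-fold in Kc cells, where 5.88% of all genes did. The 18S rRNA control read 4.08 to 4.65 with H1 RNAi and 5.99 to 7.53 with GFP RNAi, and its part in these values was not tested.

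The core subunits had small changes in Kc cells as well. ND-51 read 10.91 and 10.89 with H1 RNAi, against 10.76 and 10.64 with GFP RNAi (change 0.20, adjusted p = 0.409). ND-20 read 11.29 and 11.24 with H1 RNAi, against 11.10 and 11.01 with GFP RNAi (change 0.21, adjusted p = 0.313). ND-75 read 10.37 and 10.20 with H1 RNAi, against 10.28 and 10.06 with GFP RNAi (change 0.11, adjusted p = 0.799). All 3 had a positive estimate in both systems, with the exceptions given above for ND-75 in glands, and in Kc cells none passed. Non-overlap is common with 2 arrays a group: 14 members lay fully lower and 8 fully higher, and over all genes 34.5% lay lower and 24.8% higher. Of the paralogs, ND-24L had a Kc change of 0.28 (adjusted p = 0.446), ND-20L of 0.16 (0.694), ND-51L2 of -0.06 (0.968), ND-51L1 of -0.28 (0.639, interval -0.72 to 0.17) and ND-B14.5AL of -0.31 (0.217).

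The test of the difference, gland change minus Kc change, asked whether the effect of H1 RNAi depended on the system. For 7 members it was below 0 (21.9%) and for none above, while over all genes 14.7% were below and 17.2% above. Of the 24 members with a mean level of at least 9, 25% were below and none above. Among all genes at that level, 21.1% were below and 24.8% above, so the share below was close to that of genes of similar mean level. ND-18 differed by -0.63 (adjusted p = 0.0125), ND-20L by -0.61 (0.0200), ND-B14.5A by -0.60 (0.00524), ND-B17 by -0.57 (0.00599) and ND-PDSW by -0.55 (0.00884). ND-MNLL differed by -0.43 (0.0340) and ND-B14 by -0.35 (0.0407). The count fell to 3 without GFP Kc array b or H1 Kc array a, when ND-B17, ND-B14.5A and ND-PDSW stayed called. ND-B14 lost its call in 10 and ND-MNLL in 9 of 18 alternatives. Each of these was lower in H1 glands and did not pass in Kc cells, where ND-PDSW, for example, read 10.64 and 10.56 with H1 RNAi, against 10.63 and 10.58 with GFP RNAi. ND-B17 read 9.99 and 9.96 with H1 RNAi, against 10.19 and 10.28 with GFP RNAi, a Kc change of -0.26 that did not pass (adjusted p = 0.192). The gap for ND-15 ran the other way, at 0.34, and did not pass (adjusted p = 0.0699). The control RNAi, the driver or dsRNA, the temperature and the length of treatment also differ between the systems and cannot be told apart from the cell type here. The signal of 3′ over 5′ actin probe sets (log2) was 2.11 to 2.48 in H1 glands and 1.80 to 1.98 in nau glands. It was 0.26 to 0.28 in H1 Kc cells and 0.40 to 0.49 in GFP Kc cells. GAPDH, eIF-4a and the 18S rRNA control also stood higher in glands than in Kc cells, and the part of these gaps was not tested. By sign alone, 19 members (59.4%) were below 0 in both systems, against 32.9% of all genes, and 6 were above 0 in both.

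The other genes of oxidative phosphorylation and energy metabolism gave a mixed picture in glands. Of 12 listed assembly factors of complex I, 3 were measured and all passed, while 47.2% of all genes passed in either direction. CIA30, a chaperone of the membrane arm, read 8.43, 8.52 and 8.38 in H1 glands, against 9.47, 9.34 and 9.58 in nau glands. It fell by 1.02 ± 0.09 (SE, adjusted p = 1.05e-05), more than any subunit. In Kc cells CIA30 read 8.29 and 8.20 with H1 RNAi, against 8.74 and 8.76 with GFP RNAi, and fell by 0.51 (adjusted p = 0.0277). It was lower in both systems, and the fall was larger in glands (difference -0.52, adjusted p = 0.0200). The other assembly factors were higher in H1 glands: sicily by 0.55 (adjusted p = 0.000505) and Nubpl, which delivers iron-sulphur clusters, by 0.67 (adjusted p = 0.000112).

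Among the other respiratory complexes, lower calls outnumbered higher ones in complexes II, III and V and were level in complex IV, where the share over all genes was 23.6% in each direction. Complex IV was near that share, at 21.4% lower and 21.4% higher. In complex II, 3 of 5 measured genes were lower and none higher, with a median change of -0.29. Its changes ran from -0.82 to 0.05, and SdhD, which was not the lowest, fell by 0.56. In complex III, 5 of 10 were lower and 2 higher (median -0.25), with UQCR-6.4 at -0.48 and UQCR-11 at 1.40. In complex IV, 3 of 14 were lower and 3 higher (median -0.09), and in complex V 5 of 16 were lower and 3 higher (median 0.00). Complex I had 11 of 32 lower and 1 higher, and no test between the lists was made. The tricarboxylic acid cycle, which feeds complex I with NADH, had 3 of 9 lower and 2 higher (median -0.13). Genes of mitochondrial DNA upkeep and transcription had 6 of 9 higher and 1 lower, with a median of 0.59, led by mtDNA-helicase at 1.61, and TFAM, which packages mitochondrial DNA, was the lower one at -0.29. In glycolysis 4 of 9 were higher and none lower (median 0.20), with Tpi at 1.32.

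**Figure D4:**
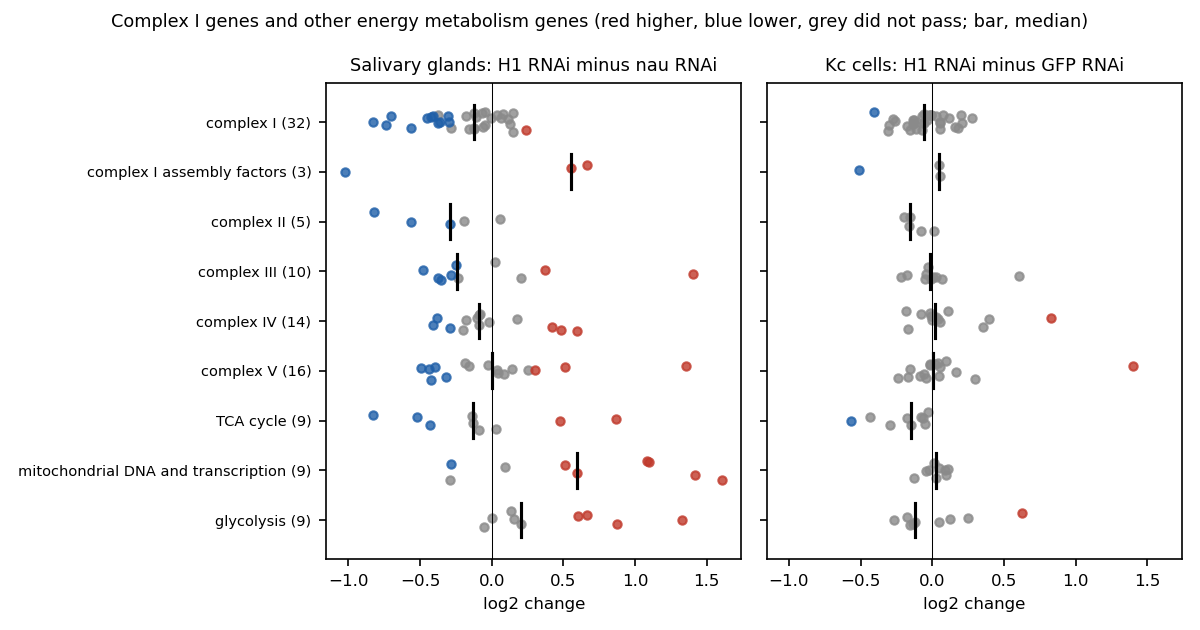
Log2 change of each measured gene by list, in glands (left) and Kc cells (right), with bars at the list medians and the number measured in brackets. Complex I has a gland median of -0.13 and the mitochondrial DNA and transcription list one of 0.59, while the Kc points gather near 0.

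Between the control samples, nau RNAi glands and GFP RNAi Kc cells, the direction for complex I depends on how arrays are scaled. The 3′ over 5′ signals of the control genes also differ between these groups, as given above, and their part in the values was not tested. On the deposited scale 16 of 32 members (50%) were lower in nau glands than in GFP Kc cells and none higher, against 35.4% lower and 24.1% higher over all genes, with a member median of -0.21. Of the 24 members with a mean level of at least 9, 62.5% were lower and none higher, against 48.3% lower and 33.2% higher among all genes at that level. When arrays were centred on the median of bright probe sets, 7 (21.9%) were lower and 18 (56.3%) higher, with a median of 0.34. Bright probe sets are those above the Tag control level of 3.55 on every array, a lower cut than the mean level of at least 9. That scaling moved the median of all genes by 0.55 and gave 24.6% of all genes lower and 59.4% higher, shares close to those of the members. Centring moves all genes alike, so the member median minus that of all genes was -0.17 either way. ND-ACP read 9.81, 9.62 and 9.51 in nau glands, against 12.29 and 12.22 in GFP Kc cells. Its difference was -2.61 as deposited and -2.06 after bright centring, with its other probe sets at -1.55 and -0.67 as deposited. ND-39 (-1.46 as deposited, -0.91 after centring), ND-20 (-1.19, -0.64) and ND-75 (-1.06, -0.51) were lower in nau glands under both. In glands under H1 RNAi, the same centring moved the median of all genes by -0.11 and raised the lower calls among members to 18 with none higher, while over all genes it gave 33.5% lower and 20.3% higher.

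**Figure D5:**
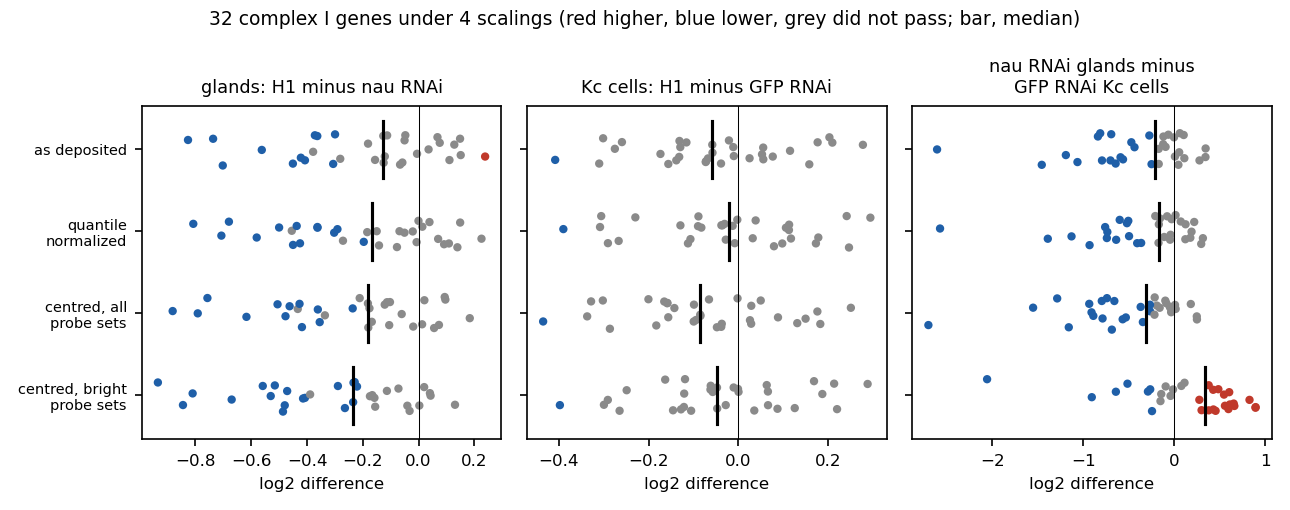
Log2 difference of the 32 complex I genes under 4 scalings (down the page), for H1 minus nau RNAi glands, H1 minus GFP RNAi Kc cells, and nau RNAi glands minus GFP RNAi Kc cells, with bars at the medians. The gland median stays below 0 (-0.13 as deposited, -0.23 with bright centring), whereas that of the control comparison is -0.21 as deposited and 0.34 with bright centring.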

How the data were processed

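Total RNA was biotin-labelled and hybridised to Affymetrix Drosophila arrays, 1 array per sample. The authors deposited linear intensities, and per the submitters' processing notes these are RMA values. No source used here says whether all arrays were processed together or names a genome build. Of 18952 probe sets, 183 controls were left out, and 18769 were tested. Probe sets were named from the platform annotation: 13647 have 1 symbol, 402 several and 4720 none. Intensities (4.39 to 20761) were taken to log2 with no further scaling. Array medians lay between 4.11 and 4.31, and the number of arrays limits the precision. limma 3.58.1 (R 4.3.3) fitted the 4 group means on all 10 arrays with its default prior, and Benjamini-Hochberg adjustment ran over all probe sets of each contrast. A level at or under the 95th percentile of 17 Tag controls (3.55) was taken as background. No scan date or other batch is given in the labels.

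The members and lists were chosen with earlier results of these data known. Genes named with values were the measured core subunits, the largest gland changes that passed, every member that passed in Kc cells or in the difference, the paralogs and members with several probe sets. Other members are given by their change, and ND-MNLL, whose symbol ends in L, was counted as a subunit. Examples from the other lists, CIA30 among them, were chosen after their values were seen. The script was tested on simulated data. Alternatives tried were each system alone, quantile normalization, 2 centrings, no dim probe sets, a trend and robust prior, log2 of intensity plus 16, the mean of a gene's probe sets, a replicate block and each array left out.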

Additional observations from a re-analysis of the deposited data

Results flagged for a closer look

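The effect of H1 RNAi differed between glands and Kc cells for 7 complex I genes, by the limma test of the gland change minus the Kc change. These were 21.9% of the members, all below 0, while 14.7% of all genes were below and 17.2% above. Among genes with a mean level of at least 9, 21.1% were below, against 25% of the members at that level. The difference was -0.63 for ND-18, -0.61 for ND-20L, -0.60 for ND-B14.5A, -0.57 for ND-B17, -0.55 for ND-PDSW, -0.43 for ND-MNLL and -0.35 for ND-B14. ND-B17, ND-B14.5A and ND-PDSW kept this call under all 18 alternatives. ND-18 and ND-20L lost it without GFP Kc array b or H1 Kc array a, with adjusted p up to 0.0680 for ND-18 and 0.0971 for ND-20L. ND-B14 lost it in 10 alternatives (adjusted p up to 0.118) and ND-MNLL in 9 (up to 0.143). Groups of 2 or 3 arrays are too small for a test of single outlying arrays.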

How the results depend on the processing

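Of the 11 gland genes called lower, 9 kept the call in all 19 alternatives, while ND-13B lost it in 6 and ND-19 in 4. ND-51, the gland gene called higher, lost its call in 14, and ND-15 in Kc cells in 9. In glands, the number higher was 0 with each system alone, quantile normalization, either centring or the replicate block, 2 with the trend and robust prior, and 3 with log2 of intensity plus 16. Leaving out 1 array gave 0 to 1 higher and 9 to 11 lower, with a median of -0.18 to -0.10. Centring on bright probe sets gave 18 lower and a median of -0.23. The gland change of ND-75 turned to -0.019 when centred on all probe sets, -0.072 when centred on bright ones and -0.010 without nau replicate b, and lay at -0.010 to 0.091 with 1 array left out. In Kc cells, the number lower was 2 with log2 of intensity plus 16 and 0 to 1 with 1 array left out. For the difference of the systems, 1 gene was above 0 without dim probe sets, with the trend and robust prior or with log2 of intensity plus 16, leaving out 1 array gave 0 to 1 above and 3 to 7 below, and the median was -0.17 with quantile normalization and -0.22 with bright centring. Between the control samples, bright centring gave 18 higher (56.3%), 7 lower (21.9%) and a median of 0.34, with 59.4% of all genes higher and 24.6% lower, centring on all probe sets gave a median of -0.31, the trend and robust prior and the replicate block each gave 1 higher, and leaving out 1 array gave 0 to 2 higher. The causes were not tested.

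The replicate letters gave no pairing: same-letter gland arrays deviated together with r of -0.07, 0.09 and 0.07. With the replicate block, 10 gland genes were lower and 0 higher, 0 Kc genes were lower, and 5 genes differed between the systems. It took the calls of ND-13B (adjusted p = 0.0827) and ND-51 (0.0779) in glands, of ND-15 (0.132) in Kc cells, and of ND-B14 and ND-MNLL in the difference.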

Other observations

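The probe set that the annotation gives to both CG40472 and ND-AGGG, a distal membrane arm subunit, read 10.37, 10.33 and 10.31 in H1 glands, against 10.21, 10.16 and 10.20 in nau glands. In Kc cells it read 9.53 and 9.66 with H1 RNAi, against 9.76 and 9.77 with GFP RNAi. The arrays do not tell which of the genes gave this signal.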
